A study of Mus musculus with 14 samples.

Results

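The Kruppel-like factors (KLFs) other than Klf1 were followed in blood-forming cells of mouse bone marrow sorted by how much of a chromatin label they had kept. The set held 9 genes listed by symbol: Klf2, Klf3, Klf4, Klf6, Klf7, Klf9, Klf10, Klf12 and Klf13. Each was read on the probe set (a group of short probes against 1 transcript) with the highest mean over all 14 arrays among the probe sets annotated with that symbol alone. The probe set of each gene was thus chosen by a measured value, its mean level, and not by its difference between levels. The 9 genes had 35 such probe sets, of 45101 on the array, and were 9 of the 16 KLF genes and of the 18194 genes that could be read in this way. For Klf3 and Klf6 the choice was close: the brightest probe sets averaged 9.24 and 7.40, and the next brightest 9.18 and 7.36. All levels below are log2 expression values of a probe set, and all differences and slopes are on that log2 scale. Levels of different probe sets are not set against each other, since each probe set has its own response.

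The cells had the LSK phenotype, which means no lineage markers and Sca1 and Kit on the surface, and this fraction holds the blood stem cells and early multipotent progenitors. All samples came from hCD34 x H2BGFP double transgenic mice on a C57BL/6 background, in which a human CD34 promoter drove the labelling of histone H2B with GFP in stem and progenitor cells. All mice were 6 to 8 weeks old when doxycycline (1 mg/ml) was put in their water, and it stayed there for 12 weeks, so GFP synthesis was off and each division halved the remaining label. The 5 sorted groups were GFP0, the most diluted, with 2 arrays, GFP1 with 3, GFP2 with 3, GFP3 with 2 and GFP4, the most retaining, with 4. Every group carried both transgenes and had received doxycycline, and no unlabelled or untreated mice are among these samples. The labels call the samples biological replicates without tying them to animals, so p-values measure the spread between sorted samples.

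KLFs are transcription factors whose C-terminal zinc fingers bind GC-rich and CACCC-type DNA. They differ in the rest of the protein: Klf3 and Klf12 carry a motif that recruits the CtBP corepressors, Klf9, Klf10 and Klf13 recruit the Sin3A corepressor, and Klf2, Klf4, Klf6 and Klf7 can activate transcription. In blood, Klf1 drives red cell genes, Klf2 keeps T cells quiescent and able to recirculate, and Klf4 acts in monocyte differentiation. The comparison over the levels asked whether transcripts of the other members tracked the divisional history of LSK cells.

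The arrays of a group correlated with r between 0.928 and 0.990 over the 18194 genes. The interquartile range of an array's values lay between 2.09 and 2.73, with the lowest values in the GFP4 and GFP0 arrays numbered 1 (2.21 and 2.09). Of 10 LSK and stem cell markers 9 could be read. Kit lay between 8.05 and 9.91 over the 14 arrays, and Ly6a, which encodes Sca1, had no probe set of its own. Mllt3, Procr and Mecom, which mark stem cells, rose with GFP level (slopes 0.81, 0.78 and 0.76 per level), and Cd48, a progenitor marker, fell by 1.07 per level (adjusted p = 0.000158, 0.00314, 0.00314 and 0.00286 in limma). Hlf rose too (0.65 per level, adjusted p = 0.00341 in limma). The slopes of the other 4, Kit (0.24), Cd34 (-0.10), Flt3 (0.05) and Slamf1 (0.15), did not pass (adjusted p = 0.178, 0.624, 0.779 and 0.0815 in limma). Of these, Slamf1 was higher in GFP4 than in GFP1 by 1.05, which passed (adjusted p = 0.0142 in limma). No detection calls come with these values and no value is 0, so the absence of a transcript cannot be read from them.

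The 250 bases before the annotated start of 3 members are shown first: Klf12 and Klf9, whose probe sets gave the calls described below, and Klf2, a textbook target of the MEF2 factors in endothelium. The sequences are RefSeq's on the mouse build GRCm38.p6, and 8 of the 9 genes matched an entry by symbol, Klf10 not. Each reads 5′ to 3′ on the strand of the gene, and capitals mark matches on either strand to GGGCGG (the GC box bound by SP and KLF factors), to the CACCC box, to the box of letters CCAAT, to TGACG (a part of the cyclic AMP response element) and the consensus of the MEF2 factors. The Klf12 window is chr14:100149797-100150046 on the minus strand, the Klf9 window chr19:23140976-23141225 on the plus strand and the Klf2 window chr8:72318812-72319061 on the plus strand.

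Klf12: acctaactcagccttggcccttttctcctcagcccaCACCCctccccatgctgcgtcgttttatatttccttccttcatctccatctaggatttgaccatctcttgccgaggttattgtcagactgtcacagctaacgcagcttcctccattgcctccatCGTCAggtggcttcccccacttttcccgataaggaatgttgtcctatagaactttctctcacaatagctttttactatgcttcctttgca

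Klf9: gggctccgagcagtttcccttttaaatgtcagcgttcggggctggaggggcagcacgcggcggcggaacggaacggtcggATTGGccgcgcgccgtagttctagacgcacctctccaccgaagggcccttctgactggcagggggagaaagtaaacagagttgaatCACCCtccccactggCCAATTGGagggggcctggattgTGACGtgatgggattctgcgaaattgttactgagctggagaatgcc

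Klf2: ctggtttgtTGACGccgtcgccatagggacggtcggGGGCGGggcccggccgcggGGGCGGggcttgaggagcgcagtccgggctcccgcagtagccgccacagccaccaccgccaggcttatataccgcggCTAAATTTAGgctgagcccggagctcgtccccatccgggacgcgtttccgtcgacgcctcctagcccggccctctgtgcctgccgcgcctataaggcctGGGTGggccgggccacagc

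The Klf12 window held 48.0% G and C, against a median of 52.0% over 27025 promoter windows of the same length, and its capitals are 1 CACCC box and 1 TGACG match. The Klf9 window held 59.6% G and C, 1 CACCC box, 3 CCAAT boxes, of which a pair overlaps in the palindrome, and 1 TGACG match. The Klf2 window held 71.2% G and C, 2 GC boxes, 1 CACCC box, 1 TGACG match and 1 match to the MEF2 consensus, which 3.01% of all windows held. A GC box stood in 6 of the 8 windows, those of Klf2, Klf3, Klf4, Klf6, Klf7 and Klf13, and in 32.94% of all windows. CACCC stood in 51.3%, CCAAT in 34.46% and TGACG in 17.86% of all windows. These are matches of letters, and binding was not measured.

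Klf12, a repressor first described through the gene of transcription factor AP-2 alpha, was the 1 member whose level rose with GFP. Its values were 6.21 and 5.36 in GFP0, 4.77, 5.53 and 7.23 in GFP1, and 5.87, 7.47 and 7.85 in GFP2. They were 7.94 and 8.49 in GFP3, and 8.62, 7.02, 8.23 and 8.27 in GFP4. Both GFP3 arrays lay above every array of the 3 lower levels, and 3 of the 4 GFP4 arrays did too, while GFP4 replicate 2 was the low one of its group. GFP1 and GFP2 each had arrays far apart: GFP1 replicate 3 stood high among the GFP1 arrays, and GFP2 replicate 1 stood low among those of GFP2. The means from GFP0 to GFP4 were 5.79 ± 0.60, 5.84 ± 1.26, 7.06 ± 1.05, 8.22 ± 0.39 and 8.03 ± 0.70 (SD, n = 2, 3, 3, 2 and 4).

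The Klf12 slope over the levels was 0.69 ± 0.15 per level (SE, adjusted p = 0.0288 in limma, adjusted over all genes). Of all genes, 3.35% passed this test, and 1 of the 9 members did. GFP4 exceeded GFP0 by 2.25 ± 0.67 (SE, adjusted p = 0.117 in limma), with no overlap of the arrays. GFP4 exceeded GFP1 by 2.19 ± 0.59 (SE, adjusted p = 0.101 in limma), and here GFP1 replicate 3 lay above GFP4 replicate 2. The background for those tests was 1.68% and 0.989% of all genes, and neither called any member. The test of any difference between levels called 0.698% of genes and no member, with an adjusted p of 0.187 for Klf12 in limma. At an unadjusted p under 0.05 each of the 4 tests counted Klf12 alone among the members, where 14.7%, 16.7%, 12.8% and 12.7% of all genes passed for GFP4 against GFP0, the slope, any difference and GFP4 against GFP1. The unadjusted count of 1 in 9 is near those shares, and with 9 genes a single adjusted call says little of the family as a whole.

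**Figure D1:**
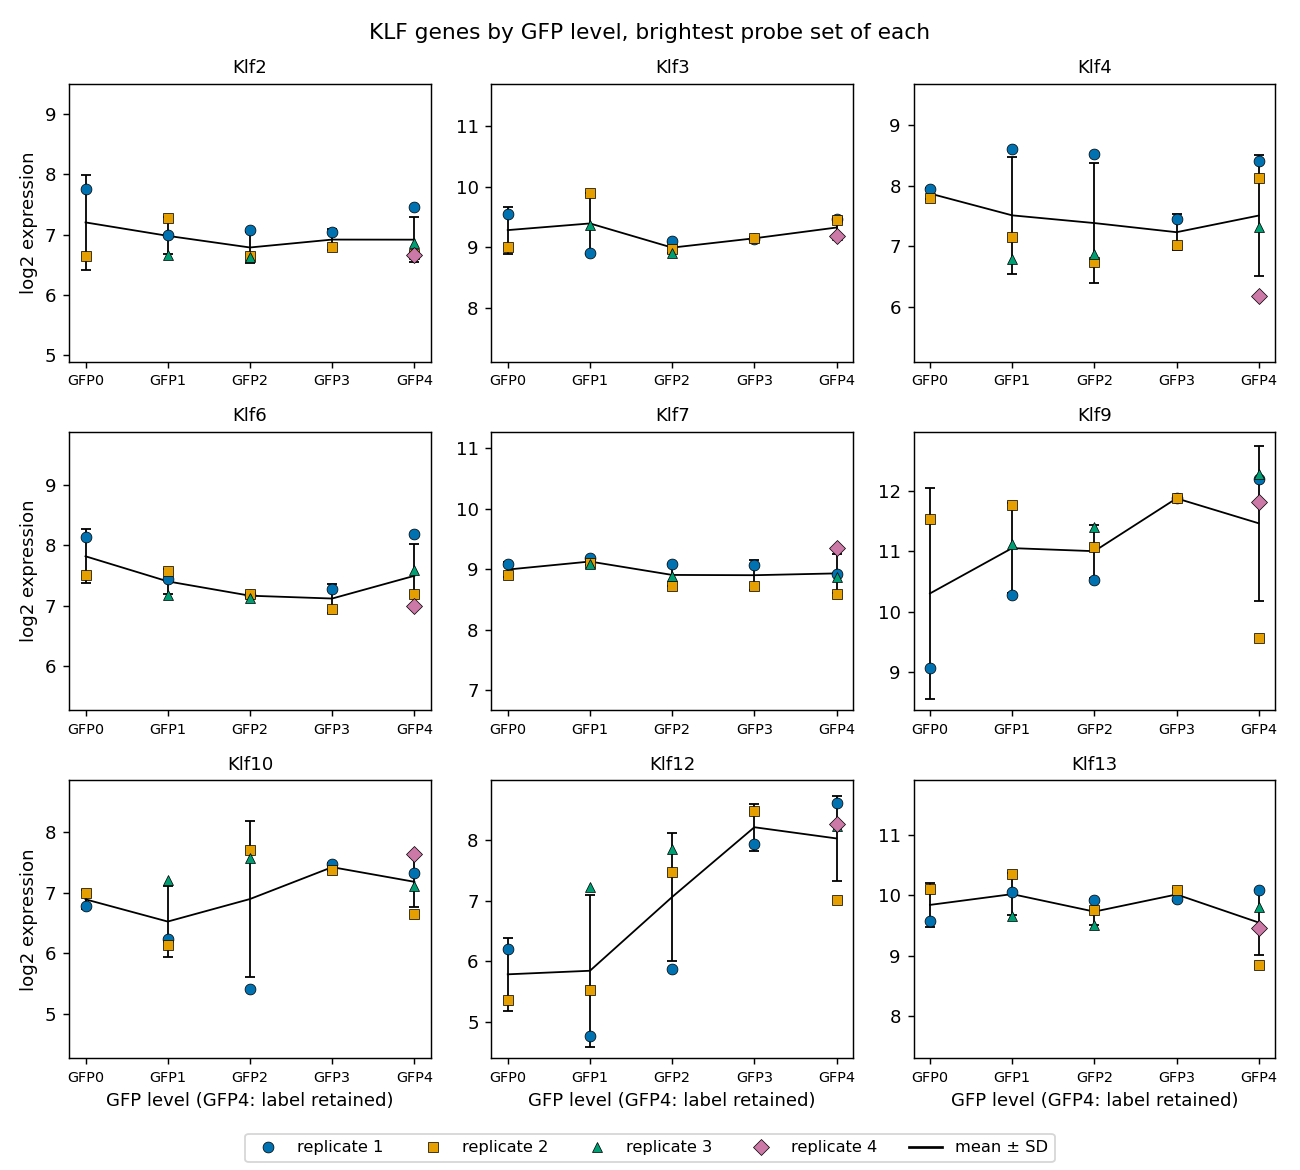
Log2 expression (vertical axis, scaled per gene) of the 9 KLF genes against the 5 GFP levels from GFP0 to GFP4 (horizontal axis). Symbols are single arrays by replicate number, and the line with bars is the mean ± SD. Klf12 has means of 5.79, 5.84, 7.06, 8.22 and 8.03 from GFP0 to GFP4, Klf4 and Klf9 scatter widely within levels, and Klf3 and Klf7 stay within a range of about 1 unit.

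The call on Klf12 depended on the settings. Its slope stayed above 0 in each, but all of them except the mean over probe sets read the same brightest probe set. The other probe sets are given below. Over 25 alternatives the slope lay between 0.18 and 0.82, with adjusted p between 0.00893 and 0.204 in limma, and it passed under 13 of them. Of the 14 fits that left out 1 array, 8 passed. Those without GFP0 replicate 1 (adjusted p = 0.0858), GFP0 replicate 2 (0.12), GFP3 replicate 2 (0.0918), GFP4 replicate 1 (0.0501), GFP4 replicate 3 (0.0529) and GFP4 replicate 4 (0.0646) did not, with slopes between 0.60 and 0.77. Where a GFP0 or GFP3 array was left out, the lone array of that level is assumed to vary like the other groups. The mean of the middle level, GFP2, does not enter the slope, so leaving out a GFP2 array could not change it (0.69 each time). Leaving out dim genes, testing each probe set and the robust variance trend also kept that slope and changed only its SE and p. Without GFP1 replicate 3 the difference between GFP4 and GFP1 was 2.88 ± 0.55 (SE) and passed (adjusted p = 0.0288 in limma).

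**Figure D2:**
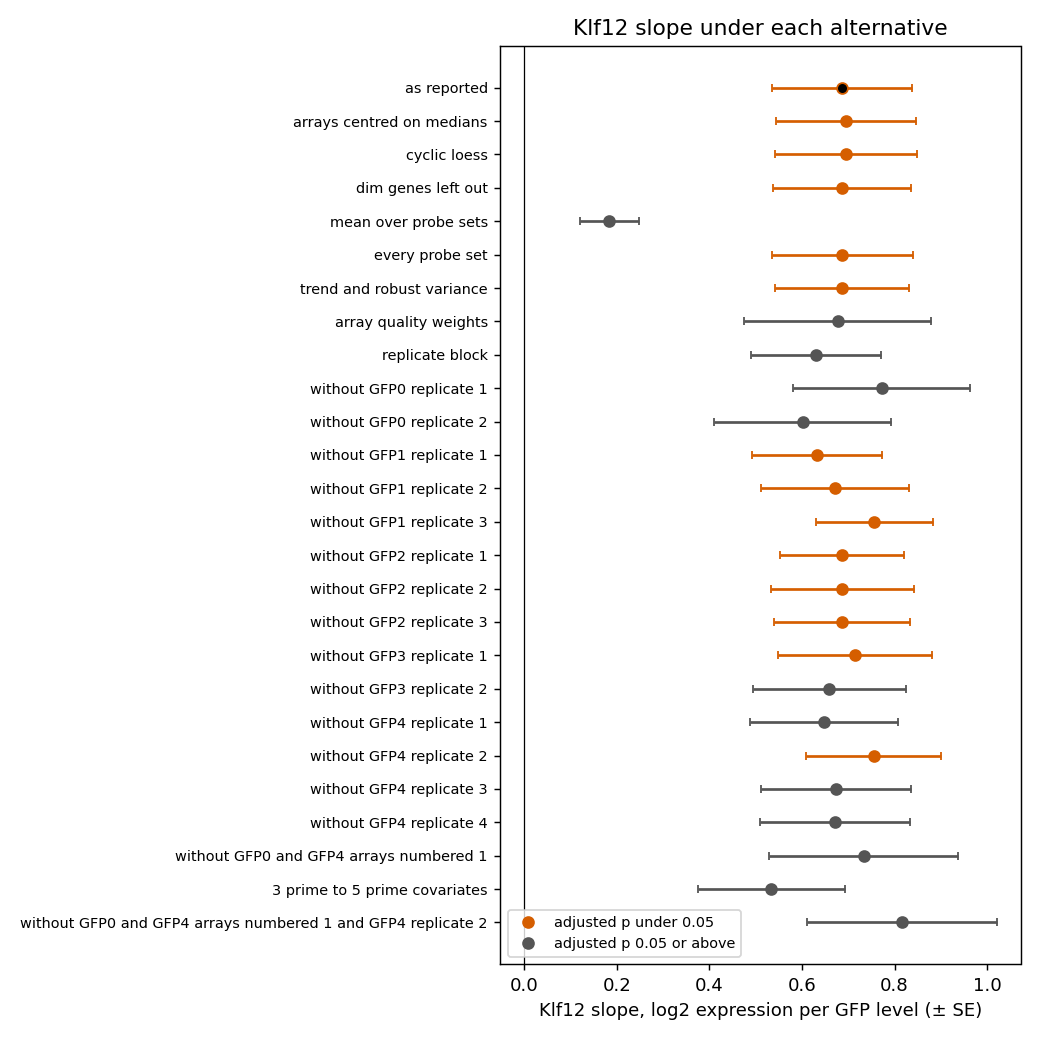
Klf12 slope in log2 expression per GFP level (horizontal axis, ± SE) as reported and under each of 25 alternatives (rows). Orange points passed at an adjusted p under 0.05 and grey points did not. Every slope lies above 0, from 0.18 for the mean over the probe sets of the gene to 0.82.

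Klf12 had 5 probe sets, and they did not behave alike. The second that followed the levels, 1439847_s_at, averaged 5.04, 4.95, 5.84, 6.29 and 6.05 from GFP0 to GFP4, and correlated with the brightest over the 14 arrays (r = 0.917). Its slope of 0.34 ± 0.10 (SE) did not pass when every probe set was tested by itself (adjusted p = 0.122 in limma over 34958 probe sets). The other 3, 1422227_at, 1439846_at and 1441040_at, had slopes of -0.03, -0.08 and 0.01. Over all probe sets 2.28% passed the slope test, and the brightest Klf12 probe set was among them (adjusted p = 0.0374). In that test it no longer passed in 10 of the 14 fits without 1 array (adjusted p between 0.0523 and 0.139). The mean over all 5 gave a slope of 0.18 ± 0.06 (SE, limma's adjusted p = 0.144), the alternative with the smallest slope. Which exons the probe sets read is not given in the sources used here.

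By pattern over the 14 arrays, the genes most like Klf12 among 11038 candidates were Mamdc2 (r = 0.973), Csgalnact1 (r = 0.955), which encodes an enzyme of chondroitin sulfate synthesis, and Tspyl4 (r = 0.940). The least like it was Serp1 (r = -0.963), which encodes a protein of the endoplasmic reticulum. All genes share the same 14 arrays, and these are the extremes of a search, so the values describe the arrays and carry no p. With the means of the levels removed, r was 0.928, 0.878, 0.907 and -0.913. Without the 2 arrays farthest from the Klf12 median it was 0.957, 0.943, 0.924 and -0.934. Mamdc2 averaged 7.34, 7.44, 8.45, 9.59 and 9.27 from GFP0 to GFP4, and rose by 0.60 ± 0.14 per level (SE, adjusted p = 0.0337 in limma). Csgalnact1 rose by 0.45 per level (adjusted p = 0.0309), and the slopes of Tspyl4 (0.24) and Serp1 (-0.36) did not pass (adjusted p = 0.105 and 0.0509).

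Markers of mast cells and basophils moved opposite to Klf12. Of the 4, Cpa3, Ms4a2 and Fcer1a fell, by 0.92, 0.93 and 0.63 per level (adjusted p = 0.0191, 0.0224 and 0.0475 in limma), and Mcpt8 had a slope of -0.66 that did not pass (adjusted p = 0.202). Their mean was between 9.39 and 9.92 in GFP0, 7.21 and 10.1 in GFP1, 6.62 and 8.88 in GFP2, 6.25 and 6.37 in GFP3, and 6.06 and 8.49 in GFP4. Within levels the same arrays stood out: GFP4 replicate 2 and GFP2 replicate 1, low in Klf12, had the highest marker means of their groups, and GFP1 replicate 3, high in Klf12, had the lowest of its group. The mean of 8 neutrophil and monocyte markers averaged 11.2, 9.64, 9.18, 8.33 and 8.75 from GFP0 to GFP4. All 8 slopes were below 0, with a median of -0.65, and 1 of them passed (Ltf, -0.63 per level, adjusted p = 0.0286 in limma). For Ltf GFP4 minus GFP0 was -2.99, and GFP4 minus GFP1 was -0.25. The part of such cells in the Klf12 result was not tested. In sorted bulk RNA, a change in the share of a cell type and a change in RNA per cell cannot be told apart.

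A sign of RNA quality, the excess of the 3 prime over the 5 prime probe set of Gapdh, correlated with Klf12 over the 14 arrays (r = 0.66), which share their processing. The excess was 5.46 and 4.84 in GFP0, 5.06, 5.02 and 6.52 in GFP1, 5.81, 5.43 and 5.65 in GFP2, 6.58 and 6.09 in GFP3, and 5.69, 5.29, 5.64 and 6.57 in GFP4. Both GFP3 arrays, GFP1 replicate 3 and GFP4 replicate 4 were high. The other GFP4 arrays lay within the range of GFP2 or below it. For Actb the correlation with Klf12 was 0.42. With this difference and that of Actb as covariates the Klf12 slope was 0.53 ± 0.16 (SE, adjusted p = 0.167 in limma), and 165 genes passed in place of 609. A part of RNA quality in the Klf12 slope was not tested beyond this fit.

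Klf9, which glucocorticoids and thyroid hormone induce in many tissues, was higher at the retaining end on 4 of its 7 probe sets, of which 1 passed. On the brightest its values were 9.07 and 11.54 in GFP0, 10.27, 11.76 and 11.13 in GFP1, and 10.53, 11.08 and 11.40 in GFP2. They were 11.88 and 11.88 in GFP3, and 12.19, 9.57, 12.28 and 11.81 in GFP4. GFP0 replicate 1 and GFP4 replicate 2 were the low arrays of their groups and lay below all 12 others, so the groups overlapped. The slope was 0.31 ± 0.17 per level (SE, adjusted p = 0.387 in limma), and none of the 14 fits without 1 array passed. It was 0.07 without GFP0 replicate 1, 0.44 without GFP4 replicate 2 (adjusted p = 0.0819) and 0.56 without GFP0 replicate 2 (adjusted p = 0.126). GFP4 exceeded GFP0 by 1.16 ± 0.75 (SE, adjusted p = 0.529), a difference that was -0.08 without GFP0 replicate 1 and 2.40 without GFP0 replicate 2. The within-group SD of 1.03 was large: 0.599% of all genes had a larger one.

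The next brightest Klf9 probe set, 1428289_at, averaged 9.64, 10.16, 10.13, 11.08 and 10.78 from GFP0 to GFP4. Its slope of 0.32 ± 0.09 (SE) did not pass over all probe sets (adjusted p = 0.0977 in limma), and without GFP4 replicate 2 it was 0.37 and passed (adjusted p = 0.031). Another, 1428288_at, was singled out after its values were seen. It read 8.17 and 7.85 in GFP0, 7.05, 7.38 and 7.93 in GFP1, 7.89, 8.46 and 8.50 in GFP2, 8.51 and 8.91 in GFP3, and 9.28, 9.19, 8.87 and 8.50 in GFP4. Every GFP4 array lay above every GFP0 and GFP1 array.

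On that probe set Klf9 rose by 0.32 ± 0.07 per level (SE, adjusted p = 0.0283 in limma over 34958 probe sets). GFP4 exceeded GFP1 by 1.51 ± 0.26 (SE, adjusted p = 0.0218), in a test that 0.669% of probe sets passed, and GFP0 by 0.95 ± 0.29 (SE, adjusted p = 0.143), in a test that 1.03% passed. The slope no longer passed without GFP0 replicate 1 (adjusted p = 0.0824), GFP0 replicate 2 (0.112) or GFP3 replicate 2 (0.101), nor without both the GFP0 and GFP4 arrays numbered 1 (0.107), without these and GFP4 replicate 2 (0.128, an alternative chosen after seeing the data) or with the 3 prime to 5 prime covariates (0.112). The difference from GFP1 no longer passed without GFP1 replicate 1 (0.124), GFP1 replicate 2 (0.0737) or GFP4 replicate 1 (0.0554), and in the same 3 other fits its adjusted p was 0.0677, 0.123 and 0.227. Of the other 4 Klf9 probe sets, 1436763_a_at had a slope of 0.17 (adjusted p = 0.17) that passed without GFP4 replicate 2 (0.20, adjusted p = 0.0462), and 1436952_at, 1452723_at and 1422264_s_at had slopes of -0.03, -0.05 and -0.00.

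**Figure D3:**
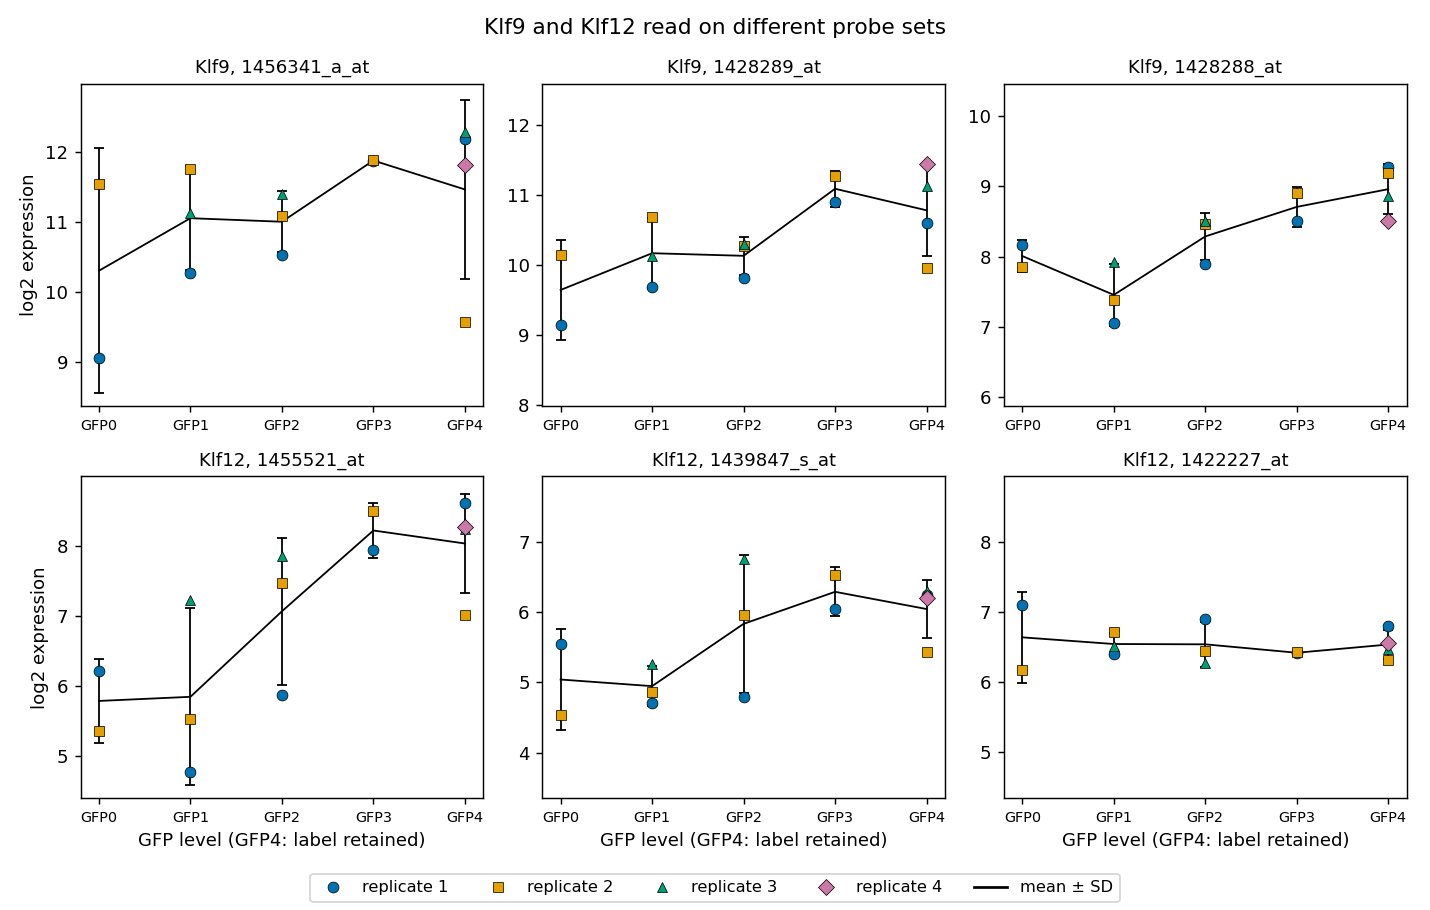
Log2 expression (vertical axis) of 3 probe sets each of Klf9 (top) and Klf12 (bottom) against GFP level from GFP0 to GFP4 (horizontal axis). Symbols are single arrays by replicate number, and the line with bars is the mean ± SD. The first 2 Klf12 panels climb together, the last stays between 6.18 and 7.10, and every GFP4 array of 1428288_at lies above every GFP0 and GFP1 array.

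Klf3 did not pass any test. It is the best studied CtBP-dependent member and lies under the control of Klf1 in red cells. Its means from GFP0 to GFP4 were 9.28 ± 0.39, 9.39 ± 0.50, 8.99 ± 0.10, 9.15 ± 0.01 and 9.32 ± 0.15 (SD, n = 2, 3, 3, 2 and 4). The slope was -0.02 ± 0.06 (SE, adjusted p = 0.917 in limma), and GFP4 minus GFP0 was 0.04 ± 0.25 (SE, adjusted p = 0.957), a sign that cyclic loess turned (-0.07). Its 7 probe sets had slopes between -0.03 and 0.04, the narrowest range among the members with more than 2 probe sets. A slope near 0 did not mean a steady level on each. The probe set 1454666_at averaged 7.74, 7.88, 8.39, 8.64 and 7.27 from GFP0 to GFP4. It had r = -0.44 with the brightest, and its test of any difference did not pass (adjusted p = 0.588 in limma). Of the corepressor genes themselves, Ctbp1 (slope 0.16, adjusted p = 0.342) and Ctbp2 (-0.05, adjusted p = 0.628) did not pass.

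Klf10, which TGF-beta induces, had 1 probe set and did not pass. It read 6.78 and 7.01 in GFP0, 6.23, 6.14 and 7.21 in GFP1, and 5.41, 7.71 and 7.57 in GFP2. It read 7.47 and 7.38 in GFP3, and 7.33, 6.65, 7.11 and 7.64 in GFP4. The low GFP2 array and the high GFP1 array were the same ones as for Klf12. The slope was 0.15 ± 0.12 (SE, adjusted p = 0.601 in limma), and GFP4 minus GFP1 was 0.66 ± 0.47 (SE, adjusted p = 0.627).

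Klf13, which activates Ccl5 in T cells, averaged 9.84, 10.02, 9.73, 10.01 and 9.55 from GFP0 to GFP4 on its brightest probe set (SD 0.37, 0.35, 0.21, 0.11 and 0.53). GFP4 replicate 2, at 8.85, was the lowest of all 14 arrays. The slope was -0.06 ± 0.07 (SE, adjusted p = 0.737 in limma). All 3 of its probe sets had negative slopes, and the dimmest, 1456030_at, had the largest in size, -0.17 ± 0.04 (SE, adjusted p = 0.0769 over all probe sets), with 7.76 and 7.25 in GFP0 above all other arrays. Ccl5 itself had a slope of -0.23 (adjusted p = 0.354).

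Klf2, Klf4, Klf6 and Klf7, the members that can activate transcription, gave no call on the gene level. Klf2 had 7.76 and 6.64 in GFP0, 6.99, 7.28 and 6.67 in GFP1, and 7.08, 6.65 and 6.64 in GFP2. It had 7.04 and 6.79 in GFP3, and 7.46, 6.68, 6.86 and 6.67 in GFP4. The highest arrays were GFP0 replicate 1 and GFP4 replicate 1, the pair with the narrowest spread of values. The slope was -0.06 ± 0.07 (SE, adjusted p = 0.719 in limma), and GFP4 minus GFP0 was -0.29 ± 0.31 (SE, adjusted p = 0.73), which became 0.27 without GFP0 replicate 1.

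Klf6, which responds to injury and growth signals, followed the same arrays on its brightest probe set. That probe set read 8.13 and 7.50 in GFP0, 7.45, 7.58 and 7.18 in GFP1, 7.18, 7.20 and 7.12 in GFP2, 7.28 and 6.95 in GFP3, and 8.19, 7.19, 7.59 and 7.0 in GFP4. GFP0 replicate 1 and GFP4 replicate 1 stood above the rest. The slope was -0.09 ± 0.07 (SE, adjusted p = 0.537 in limma). The other 4 probe sets had slopes of 0.32, 0.31, 0.01 and 0.19, none of which passed. On 3 of them, 1447448_s_at, 1433508_at and 1459718_x_at, the highest array was GFP4 replicate 2, at 9.34, 8.51 and 6.91. On 1433508_at GFP4 minus GFP1 was 1.32 ± 0.38 (SE, adjusted p = 0.152), and without GFP4 replicate 1 its slope passed (0.37, adjusted p = 0.0418), as did that of 1447448_s_at (0.42, adjusted p = 0.0372). Without the GFP0 and GFP4 arrays numbered 1 and GFP4 replicate 2 the slopes of 1433508_at (0.38, adjusted p = 0.0489) and 1459718_x_at (0.26, adjusted p = 0.045) passed. A direction for Klf6 thus depended on the probe set read.

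Klf4, a factor of monocyte differentiation and one of the reprogramming factors, varied more within levels than between them. It read 7.94 and 7.80 in GFP0, 8.60, 7.15 and 6.78 in GFP1, 8.53, 6.74 and 6.88 in GFP2, 7.44 and 7.02 in GFP3, and 8.42, 8.12, 7.31 and 6.18 in GFP4. The array numbered 1 was the highest in all 5 groups, by a median of 1.21 over the others of its group. Of the variance over arrays, 6.23% lay between levels, and 1.13% of all genes had a larger SD within groups than its 0.88. The slope was -0.10 ± 0.15 (SE, adjusted p = 0.788 in limma). The second probe set (slope -0.06) did not pass either.

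Klf7, known from neurons, was the steadiest of the members on its brightest probe set. Its means from GFP0 to GFP4 were 9.0 ± 0.12, 9.13 ± 0.06, 8.91 ± 0.18, 8.90 ± 0.25 and 8.93 ± 0.32 (SD, n = 2, 3, 3, 2 and 4), and 75.3% of all genes had a larger within-group SD than its 0.22. The slope was -0.04 ± 0.05 (SE, adjusted p = 0.772 in limma). Its 4 probe sets had slopes between -0.04 and 0.08. The other 3 correlated little with the brightest (r = 0.11, 0.11 and -0.27) and were not all steady. In GFP4, 1449439_at had an SD of 0.62 and 1419356_at an SD of 1.11, where GFP4 replicate 2 read 8.43.

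**Figure D4:**
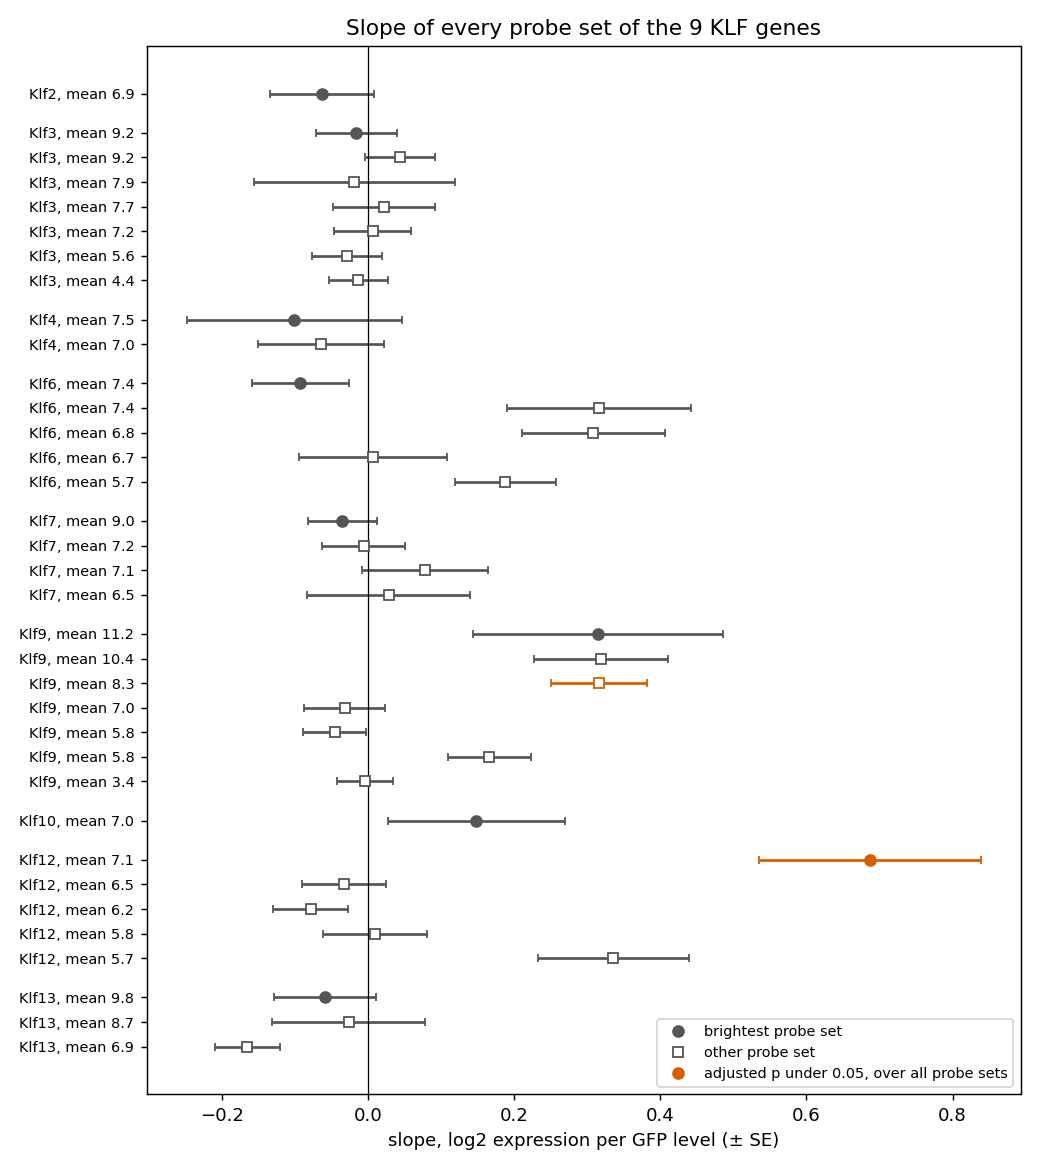
Slope in log2 expression per GFP level (horizontal axis, ± SE) of the 35 probe sets of the 9 genes (rows, each named by its gene and its mean over 14 arrays). Filled circles are the brightest probe set of a gene and open squares the others, and orange marks an adjusted p under 0.05 over all probe sets. A probe set each of Klf9 and Klf12 passed, 17 slopes are above 0 and 18 below, and the probe sets of Klf3, Klf6, Klf7, Klf9 and Klf12 lie on both sides.

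Among the 9 genes the median slope was -0.04, against -0.01 over all genes. The median difference of GFP4 from GFP0 was -0.06, against -0.04 over all genes, and that of GFP4 from GFP1 was -0.00, against 0.06. When the 5 levels of each gene were put in order, 33 of the 36 gaps between neighbours were smaller than the larger of both SDs, and the arrays overlapped in 34. The exceptions were GFP3 over GFP2 for Klf3 and GFP1 over GFP0 for Klf7, which did not overlap, and GFP1 over GFP2 for Klf6, which did. Neither gaps nor overlaps were counted over all genes, here or for the single probe sets above. They describe the arrays and set no member apart. For Klf12 the order of means was GFP0, GFP1, GFP2, GFP4 and GFP3, and no neighbours in that order differed by more than the larger SD. Over the 14 arrays the 36 pairs of members had r between -0.66 and 0.82 with a median of 0.04. The highest were those of Klf2 with Klf6 (0.82) and of Klf10 with Klf12 (0.75), and the lowest that of Klf4 with Klf10 (-0.66). All pairs share the same arrays, and with the level means removed these 3 were 0.86, 0.80 and -0.71. By rank over the 14 arrays they were 0.60, 0.71 and -0.72. Klf2 and Klf6 also correlated with the interquartile range of the arrays (r = -0.82 and -0.80). The part of that spread in the correlation of this pair was not tested.

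Other KLF and SP factors gave 1 call among 14 measured. Klf1, the erythroid member, fell by 0.70 ± 0.16 per level (SE, adjusted p = 0.0362 in limma), and 1.07% of all genes passed downward. Klf5, Klf11, Klf14, Klf15, Klf16 and Klf17 had slopes between -0.10 and 0.07, and Sp1, which shares the GC box with the KLFs, had 0.07. The slope of the other 13 did not pass, and the list median was -0.02.

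Among 16 upstream regulators, Ccm2 rose by 0.24 ± 0.05 per level (SE, adjusted p = 0.0329 in limma). Its protein belongs to the cerebral cavernous malformation complex, which in endothelium restrains the MEKK3, MEK5 and ERK5 kinases and, through MEF2, Klf2 and Klf4. The kinase genes Map3k3 (slope 0.25, adjusted p = 0.0899), Map2k5 (0.14, adjusted p = 0.386) and Mapk7 (0.06, adjusted p = 0.577) and the factor gene Mef2a (0.46, adjusted p = 0.131) did not pass. Upward calls made up 2.28% of all genes, and 1 of the 16 passed. The list median of 0.14 stood beside -0.01 for all genes, and Klf2 and Klf4 had slopes of -0.06 and -0.10. None of 12 corepressor genes passed, and the largest slope in size was that of Sap30 (-0.25, adjusted p = 0.1), a subunit of the Sin3 complex.

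Of 11 measured genes reported as KLF targets, Cdkn1c and Cdkn1a moved in opposite directions along the slope, on which 2.28% of all genes rose and 1.07% fell. Cdkn1c, which encodes the cell cycle inhibitor p57, rose by 0.65 ± 0.08 per level (SE, adjusted p = 0.00177 in limma) and was higher in GFP4 than in GFP0 by 2.39 (adjusted p = 0.00894) and than in GFP1 by 1.91 (adjusted p = 0.015). Cdkn1a, which encodes p21 and is activated by Klf4 and Klf6 in other cells, fell by 0.25 ± 0.05 per level (SE, adjusted p = 0.0243). S1pr1, the egress receptor that Klf2 activates in T cells, had a slope of 0.17 (adjusted p = 0.431), and Tfap2a, the AP-2 alpha gene that Klf12 represses, had 0.03 (adjusted p = 0.808) at values between 6.23 and 6.90. The other 9 members did not pass, and the list median was -0.04.

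The lists of stimuli that induce KLFs gave 3 calls on the slope, which 2.28% of all genes passed upward and 1.07% downward. Of 18 immediate early and heat shock genes, Hspa1a and Egr2 fell, by 0.74 and 0.32 per level (adjusted p = 0.00508 and 0.0475 in limma). For these genes GFP4 minus GFP0 was -3.74 and -1.50, but GFP4 minus GFP1 was -0.17 and 0.11. A fall from GFP1 to GFP4 was thus not shown for them. The list mean was between 8.57 and 8.91 in GFP0, 7.49 and 7.93 in GFP1, 7.37 and 7.87 in GFP2, 7.64 and 8.08 in GFP3, and 7.49 and 8.68 in GFP4, and GFP4 replicate 1 (8.68) lay between both GFP0 arrays. The other 16 genes did not pass, and the list median was -0.06. Of 10 genes of the TGF-beta response, Smad3, a signal transducer, rose by 0.27 ± 0.06 per level (SE, adjusted p = 0.0329). None of 9 glucocorticoid response genes passed, and the largest slope in size was that of Mt1 (-0.40, adjusted p = 0.372). Tsc22d3 (0.26), Per1 (0.19), Ddit4 (0.09) and Nr3c1 (0.03) had slopes above 0, and Mt2 (-0.35), Sgk1 (-0.14), Zbtb16 (-0.13) and Fkbp5 (-0.02) below. The lowest adjusted p of that list was that of Tsc22d3 (0.0961 in limma). The list median was -0.02 for the glucocorticoid genes, beside a slope of 0.31 for Klf9, and 0.07 for the TGF-beta genes, beside 0.15 for Klf10.

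Markers of other cells that could enter the sort were read as well. None of 6 endothelial markers passed, while 1 of 5 T and NK cell markers (Nkg7, slope -0.81, adjusted p = 0.0287), 1 of 5 B cell markers (Vpreb1, -0.80, adjusted p = 0.0159) and 1 of 4 erythroid markers (Klf1) fell, as did 1.07% of all genes. The mean of the T and NK cell markers was between 7.10 and 7.83 in GFP4, against 8.16 and 8.91 in GFP0. Nkg7 weighed most in it. GFP4 minus GFP0 was -2.93 for Nkg7, and -0.71, -0.22, -0.39 and -0.84 for Cd3d, Cd3e, Cd3g and Cd8a. GFP4 minus GFP1 was -2.95 for Nkg7, but 0.13, -0.05, 0.19 and -0.01 for those genes. The part of other cells in the values of Klf2 and Klf13, which lymphoid cells also express, was not tested.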

How the data were processed

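Sorted LSK cells of 14 samples were profiled on Affymetrix arrays. RNA was purified, amplified and labelled with biotin, per the labels' protocols. The software named is GCOS, RMA and affy, with no versions, per the submitters' processing notes. Deposited were log2 probe-set values between 2.69 and 15.1, without detection calls, and the scale was read from their range. RMA is meant to equalise distributions and summarises probes, so a small shift common to all genes may be hidden. The deposited values still differed between arrays, with medians between 6.96 and 7.18 and interquartile ranges between 2.09 and 2.73. The number of arrays limits the precision. The genome build of the annotation is not given in the sources used here. Each column was matched to its sample by name, and 0 columns belonged to no sample.

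Of 45101 probe sets 34958 named 1 gene symbol, 932 several and 9211 none, per the platform annotation, and 34754 of the first matched RefSeq (GRCm38.p6) by gene identifier with 0 symbols changed. Groups were taken from the sample titles. In limma 3.58.1 (R 4.3.3) the log2 values of 18194 genes in all 14 arrays were fitted by 1 mean per group, and variances were moderated by empirical Bayes (residual degrees of freedom 9, prior 3.99). Contrasts were GFP4 minus GFP0, GFP4 minus GFP1 and the slope per level, beside an F test of any difference. The slope was taken through the group means, each level counted once whatever its number of arrays. Two-sided p-values were adjusted by Benjamini-Hochberg over the whole gene table, or over all 34958 probe sets where single probe sets are given, at a threshold of 0.05. Comparisons share arrays: both differences use the GFP4 arrays, the slope uses the means of all levels but GFP2, and the GFP2 arrays enter its variance. Dim genes were kept. The fits were checked on simulated data.

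All 9 members are named. Of each list the genes past any test are named, up to 4 by the p of the slope, or the largest slope in size where none passed, and other genes where a member's role refers to them. Patterns like that of Klf12 are the 3 highest and the 1 lowest correlation among genes whose mean reached the table median. The members, lists, probe sets and alternatives were chosen with earlier results of these data known, so no count over them is independent support.

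Alternatives were cyclic loess, centring on medians, leaving out dim genes, averaging a gene's probe sets, testing each probe set, a robust variance trend, a replicate block, array quality weights, leaving out each array, leaving out the GFP0 and GFP4 arrays numbered 1, 3 prime to 5 prime covariates and the compared groups alone. 1 alternative, without those arrays and GFP4 replicate 2, was chosen after seeing the data. Promoter windows were the 250 bases before the start in the RefSeq table. Figures were drawn with matplotlib 3.10.9.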

Additional observations from a re-analysis of the deposited data

Results flagged for a closer look

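In the groups of 4 arrays, the lowest or highest array was compared with the rest for each of the 35 probe sets, and 2 of them had an array set apart from the others in GFP4, both times GFP4 replicate 2. The Klf12 probe set 1439847_s_at read 5.4325 in that array, and the other 3 GFP4 arrays lay between 6.20 and 6.31. The Klf3 probe set 1429360_at read 7.0472 there, and the others lay between 7.68 and 7.79. Chance flags about 5% of groups, so 2 of 35 is near that share. The causes were not tested.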

How the results depend on the processing

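Over 36 member results and all alternatives, 910 values were compared with those reported: 897 kept their side of the threshold, 12 no longer passed, all of them the Klf12 slope, 1 newly passed (Klf12, GFP4 against GFP1, without GFP1 replicate 3) and 0 reversed a call. Among values that did not pass, 50 changed sign. The 12 are those of the 6 arrays left out named in the report, the mean over probe sets (0.18), array quality weights (0.68, adjusted p = 0.204), the replicate block (0.63, adjusted p = 0.0558), the 3 prime to 5 prime covariates (0.53), the fit without the GFP0 and GFP4 arrays numbered 1 (0.73, adjusted p = 0.135) and that without these and GFP4 replicate 2 (0.82, adjusted p = 0.0875, chosen after seeing the data). In each of these the number of members called by the slope was 0 in place of 1. Leaving out single arrays it was 0 to 1, and for GFP4 against GFP1 0 to 1.

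The counts over all genes moved more. For GFP4 against GFP0 (306) the count was 2 with array quality weights, 67 with the replicate block, 142 with the covariates, 58 with the compared groups alone, 41 without the arrays numbered 1, 112 without these and GFP4 replicate 2, and 51 to 363 leaving out single arrays. For the slope (609) it was 90, 337 and 165 with weights, block and covariates, 156 and 269 without those arrays, and 182 (without GFP3 replicate 2) to 768 (without GFP4 replicate 2). For any difference (127) it was 38 with arrays centred on medians, 335, 34 and 11 with weights, block and covariates, 20 and 38 without those arrays, and 28 to 158. For GFP4 against GFP1 (180) it was 293, 74 and 28 with weights, block and covariates, 42 with the compared groups alone, 112 without the arrays numbered 1, and 39 (without GFP1 replicate 1) to 312. The causes were not tested.

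Whether replicate numbers pair the samples cannot be told from these values. In their deviations from group means, 23 pairs with the same number had r between -0.26 and 0.58. Their mean was 0.06, and 9 of them were over 0.1. The 54 pairs with different numbers had r between -0.63 and 0.48, with a mean of -0.02 and 20 over 0.1. Groups of 2 to 4 arrays and the lack of detection calls limit what dim probe sets can show.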
